A study of Rattus norvegicus with 4 samples.

Results

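The genes described here encode the contractile apparatus of smooth muscle in the uterine wall: the filament proteins and the structures that anchor them. Others encode the membrane and calcium machinery that triggers contraction and the enzymes that set myosin light chain phosphorylation. The rest encode the transcription factor and coactivators that drive these genes. The genes were chosen by name, as 54 listed symbols. A gene was measured where the platform annotation gives its symbol as the single symbol of a probe set. That held for 48 of the 54, out of 18166 genes tested in all. For 2 of the 48 the annotation uses the current symbol (Mrtfa for Mkl1 and Irag1 for Mrvi1). Acta2, Cnn1, Cnn2, Myl6, Gjc1 and Mkl2 were not analysed here.

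The pre-implantation uterus of adult Sprague Dawley rats was taken on day 5 of pregnancy, and its total RNA was hybridised to 4 Affymetrix arrays. Rats of the first group (replicates 1 and 2) had on day 1 of pregnancy been fed ormeloxifene at 1.25 mg per kg, with gum acacia as the carrier, and those of the second group (replicates 1 and 2) had received vehicle only. The drug, an oral contraceptive, binds oestrogen receptors and acts as a tissue-selective modulator of them. The labels call the replicates biological but do not say how many rats each array holds, and no separate dissection of the muscle layer is named. In RNA of a whole organ, fewer cells of a type and less RNA per cell cannot be told apart.

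Smooth muscle contracts when calcium enters through voltage-gated channels or is released from internal stores, binds calmodulin and activates myosin light chain kinase. Phosphorylated myosin then pulls on actin filaments that are anchored in dense bodies and dense plaques, the counterparts of the Z line of striated muscle. In the myometrium, which forms the outer wall of the uterus, the cells are coupled by gap junctions, and the contractile genes depend on serum response factor, Srf, and its coactivators myocardin and the Mrtf proteins. Serum response factor binds a short DNA element called the CArG box.

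Promoter windows of 300 bases (250 before the start site and 50 from it onward, RefSeq, build GRCr8) were found for 41 of the 48 genes, 48 windows in all. A CArG box lay in 3 of these windows, those of Srf, Ldb3 and Dmd, against 1.64% of all 33469 windows. The 150 bases before the start site are shown for these 3 genes, because the factor that binds the box is itself among the genes measured. Capitals mark the CArG boxes, which here all have only A and T between CC and GG.
Srf, chr9:21923926-21924075, plus strand: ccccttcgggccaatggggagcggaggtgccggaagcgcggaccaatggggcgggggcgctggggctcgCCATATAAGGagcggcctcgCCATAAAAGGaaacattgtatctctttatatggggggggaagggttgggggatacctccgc
Ldb3, chr16:9924680-9924829, minus strand: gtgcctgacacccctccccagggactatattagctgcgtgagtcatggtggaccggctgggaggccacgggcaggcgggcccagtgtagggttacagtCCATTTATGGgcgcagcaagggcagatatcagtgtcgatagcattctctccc
Dmd, chrX:51205936-51206085, plus strand: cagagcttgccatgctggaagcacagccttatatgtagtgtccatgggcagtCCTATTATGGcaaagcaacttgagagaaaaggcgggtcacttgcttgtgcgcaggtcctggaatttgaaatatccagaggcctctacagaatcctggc
The Srf window holds 2 boxes, at 81 to 72 and at 61 to 52 bases before the start site. The box of Ldb3 lies at 52 to 43 bases and that of Dmd at 98 to 89 bases. The element CATTCC, searched on both strands (as GGAATG on the other) and known as the MCAT element of TEAD factors, was found in 10 of the 48 windows and in 14.2% of all windows. These matches describe letters in a window only. Sequence outside the windows was not searched, and genes without a window were not searched at all. A gene without a match here may therefore have a box elsewhere. The 3 genes with a CArG box in their window differed between the groups by -0.02 ± 0.21 for Srf, 0.04 ± 0.22 for Ldb3 and 0.11 ± 0.20 for Dmd (log2 difference ± SE, n = 2 arrays a group).

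Values below are log2 signals after quantile normalization of the 4 arrays, and differences are ormeloxifene minus vehicle on that scale with the standard error of the limma fit (n = 2 arrays a group). The deposited columns had medians of 5.67 and 5.93 with ormeloxifene, against 5.72 and 5.84 with vehicle. Exactly equal deposited values at a probe set occurred 488 times between the arrays numbered 1 and 551 times between those numbered 2, and 0 times in the other pairs, so differences are also given within number 1 and within number 2. The labels name no batch. Signals of different probe sets cannot be set against each other as expression levels; the percentile of a probe set's mean signal among all genes serves here only to show which are dim. The 48 smooth muscle genes had a median percentile of 87.0, with Tagln, Actg2, Myh11 and the intermediate filament gene Des at 99.8, 99.8, 99.2 and 98.7. Skeletal and cardiac muscle markers had a median percentile of 35.7 over 14 genes, with Acta1, a skeletal muscle actin closely related in sequence to the smooth muscle actins, as the bright exception (98.6). The dimmest smooth muscle genes were Cav3 (26.7), Ryr2 (28.5) and Sgca (34.0).

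Most of the contractile genes had slightly higher signals in the ormeloxifene uteri, but no single gene passed the test. Of the 48 genes, 38 had a positive difference and 10 a negative one, with a median of 0.14 and a range of -0.29 to 0.45. Over all genes tested, 53.4% had a positive difference and the median was 0.02. In linear terms the genes ran from 0.819 to 1.36 times the vehicle level. By limma with Benjamini-Hochberg adjustment over all genes, 0 of the 48 passed an adjusted p of 0.05, as did 0% of the 18166 genes. At an unadjusted p under 0.05 stood 0 of the 48, against 1.12% of all genes on the higher side and 1.08% on the lower side. The 95% interval spanned 0 for all 48 and reached at most -0.99 and 0.99.

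**Figure D1:**
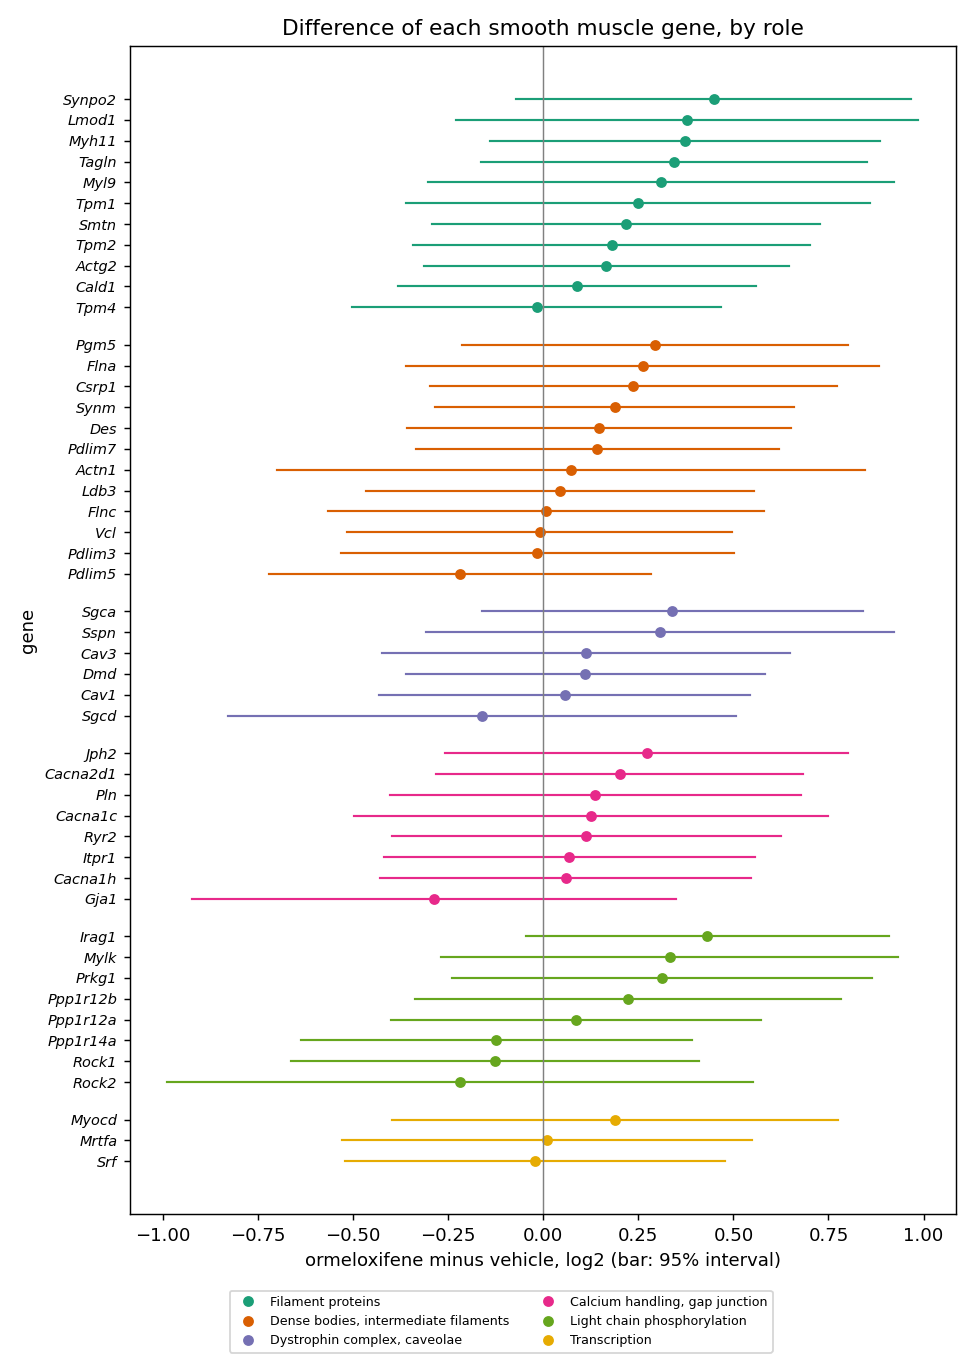
Difference between ormeloxifene and vehicle uteri for each of the 48 genes, by role, as log2 of signal. Points are ormeloxifene minus vehicle, bars their 95% intervals from limma (n = 2 arrays a group). All 48 bars cross 0, and 10 of the 11 filament genes lie on the positive side.

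In the medians of these genes the groups were barely separated. The median deviation of the 48 genes from their own 4-array means was 0.14 and 0.01 in ormeloxifene replicates 1 and 2, and -0.00 and -0.16 in vehicle replicates 1 and 2. Ormeloxifene replicate 1 was thus highest, vehicle replicate 2 lowest, and ormeloxifene replicate 2 lay next to vehicle replicate 1. Ormeloxifene replicate 1 was the highest array for 28 of the 48 genes and vehicle replicate 2 the lowest for 26. From replicate 1 to replicate 2 the genes differed by a median of -0.17 in the ormeloxifene group and -0.17 in the vehicle group, more than the 0.14 between the groups. Replicate 2 was below replicate 1 in both groups for 28 of the 48 genes, against 31.8% of all genes. For 37 genes the difference between the groups was smaller than the gap between the replicates of at least 1 group. The groups did not overlap in 14 of the 48 genes. Of the 48, 13 were higher and 1 lower with ormeloxifene, against 13.9% of all genes higher and 11.8% lower. Without ormeloxifene replicate 1 the median difference was 0.08, and without vehicle replicate 2 it was 0.07 (0.01 and 0.04 over all genes). Leaving out 1 array moved the difference, up or down, by over 1.5 times for 46 of the 48 genes, the exceptions being Synm and Irag1. A difference near 0 passes this ratio after a small change. For this ratio, the highest and lowest arrays and the gaps between replicates, shares over all genes were not computed. Those counts therefore do not set the 48 genes apart from other genes.

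Filament genes had the highest median of the 6 roles, 0.25 over the 11 measured, with 10 higher and 1 lower. Myh11, the myosin heavy chain of smooth muscle, had signals of 10.96 and 10.89 in ormeloxifene uteri, against 10.72 and 10.38 in vehicle uteri. Both ormeloxifene arrays lay above both vehicle arrays, and the difference of 0.37 ± 0.22 did not pass (limma adjusted p = 1.00). Synpo2, an actin-bundling protein of the Z line, had 9.99 and 9.63 in ormeloxifene uteri, against 9.41 and 9.31 in vehicle uteri. Its groups did not overlap, and its 0.45 ± 0.22 was the largest difference among the 48 genes. Tagln, the actin-binding protein transgelin, had 12.37 and 12.06 with ormeloxifene and 11.89 and 11.85 with vehicle. Its vehicle arrays lay close together and both ormeloxifene arrays above them, by 0.34 ± 0.22 on average, or 0.19 without ormeloxifene replicate 1. Actg2, the enteric and uterine smooth muscle actin, had 11.91 and 12.00 with ormeloxifene, against 11.87 and 11.72 with vehicle. Its groups did not overlap, but the lower ormeloxifene array was barely above the higher vehicle array, and the difference was 0.17 ± 0.21.

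Among the other filament genes, Lmod1, a leiomodin that nucleates actin filaments, differed by 0.38 ± 0.26 and had a vehicle replicate 2 far below the other arrays. Without that array its difference was 0.07. The regulatory light chain Myl9 differed by 0.31 ± 0.26, from 0.06 without vehicle replicate 2 to 0.56 without vehicle replicate 1. The tropomyosins, which lie along the actin filament, lay on both sides of 0: the differences were 0.25 ± 0.26 for Tpm1, 0.18 ± 0.22 for Tpm2 and -0.02 ± 0.21 for Tpm4, the single lower gene of this role. The actin-binding proteins Smtn (smoothelin, 0.22 ± 0.22, and 0.08 without ormeloxifene replicate 1) and Cald1 (caldesmon, 0.09 ± 0.20) were also positive. Within number 1 the filament genes had a median of 0.24 and within number 2 of 0.28, with 10 of 11 higher in each.

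**Figure D2:**
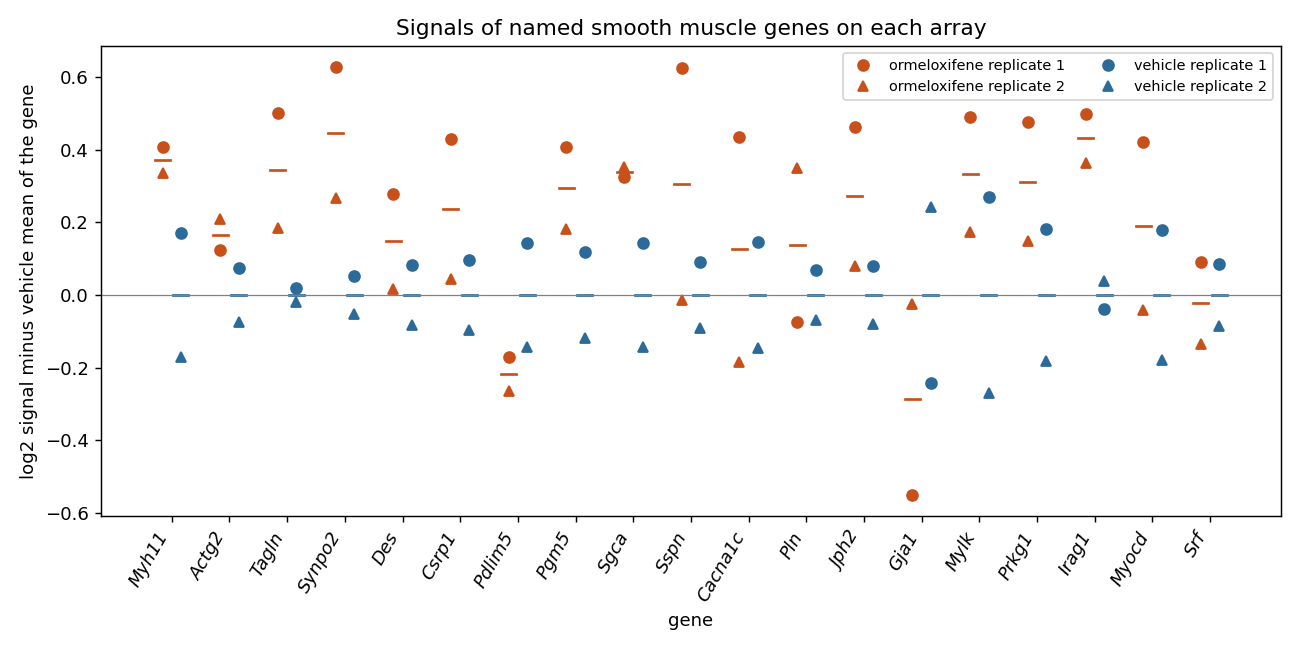
Log2 signal of the 19 genes described per array, minus the vehicle mean of the gene. Points are arrays (circles replicate 1, triangles replicate 2), short lines group means, ormeloxifene left of vehicle. Ormeloxifene replicate 1 is the highest array for 14 of the 19 genes, the exceptions being Actg2, Pdlim5, Sgca, Pln and Gja1.

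Genes of dense bodies and intermediate filaments split, with 9 of 12 higher and a median of 0.11. Pgm5, a phosphoglucomutase relative that localises to adherens-type junctions of muscle, had signals of 9.74 and 9.51 with ormeloxifene, against 9.45 and 9.21 with vehicle. Its groups did not overlap, at a difference of 0.29 ± 0.22 that was 0.29 within number 1 and 0.30 within number 2. Csrp1, a LIM protein of smooth muscle, had 12.05 and 11.67 with ormeloxifene and 11.72 and 11.52 with vehicle, with overlapping groups and a difference of 0.24 ± 0.23. Without ormeloxifene replicate 1 it was 0.04. Des, the intermediate filament protein desmin, had 10.49 and 10.22 with ormeloxifene, against 10.29 and 10.12 with vehicle. The desmin groups overlapped and differed by 0.15 ± 0.22, or 0.02 without ormeloxifene replicate 1. Pdlim5, a PDZ and LIM domain protein of the Z line, had 7.95 and 7.86 with ormeloxifene, against 8.26 and 7.98 with vehicle. It was the single gene of the 48 with both ormeloxifene arrays below both vehicle arrays (-0.22 ± 0.22), though not on the values as deposited, where 0 genes were.

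Of the relatives of Pdlim5, Pdlim7 was at 0.14 ± 0.21 and Pdlim3 at -0.02 ± 0.22. The actin cross-linking filamins differed by 0.26 ± 0.27 for Flna and 0.01 ± 0.25 for Flnc. The Flnc difference was -0.00 on the values as deposited. That of Flna was 0.0034 with vehicle replicate 2 left out and 0.52 with vehicle replicate 1 left out. Synemin, the intermediate filament protein encoded by Synm, differed by 0.19 ± 0.20 without overlap of the groups. Vinculin, encoded by Vcl and a linker of integrins to actin, was at -0.01 ± 0.22. For Actn1, an alpha-actinin that cross-links actin in dense bodies, the replicates lay farther apart than the groups: 10.44 and 9.64 with ormeloxifene, and 10.28 and 9.65 with vehicle. Its standard error of 0.33 was the highest among the 48 genes, and the difference was 0.07. Ldb3, a Z line protein, was at 0.04 ± 0.22.

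The dystrophin complex, which ties the cytoskeleton to the matrix across the membrane, and the caveolins gave 5 of 6 higher and a median of 0.11. Sgca, the alpha sarcoglycan, had signals of 5.79 and 5.82 with ormeloxifene, against 5.61 and 5.32 with vehicle. The groups did not overlap and differed by 0.34 ± 0.21 at a dim probe set. Sspn, the tetraspanin-like sarcospan of the same complex, had 8.34 and 7.70 with ormeloxifene, against 7.80 and 7.62 with vehicle. Its difference of 0.31 ± 0.26 rested on ormeloxifene replicate 1 and was -0.01 without it. Dmd, dystrophin itself, differed by 0.11 ± 0.20 with groups that did not overlap. Sgcd, the delta sarcoglycan, went opposite ways within the numbers, at -0.67 in number 1 and 0.34 in number 2, for a difference of -0.16 ± 0.29. Cav1, the main structural protein of caveolae, was at 0.06 ± 0.21 and the muscle caveolin Cav3 at 0.11 ± 0.23.

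Calcium handling genes had a median of 0.12, with 7 of 8 higher and the gap junction gene Gja1 lower. Gja1 encodes connexin 43, which couples myometrial cells electrically. Its signals were 6.67 and 7.20 with ormeloxifene, against 6.98 and 7.46 with vehicle. The groups overlapped because replicate 2 was higher than replicate 1 in each, but ormeloxifene was lower within both numbers, by -0.31 and -0.27. The difference of -0.29 ± 0.27 was the lowest of the 48 and did not pass (limma adjusted p = 1.00, 95% interval -0.92 to 0.35). It was -0.02 without ormeloxifene replicate 1 and -0.04 without vehicle replicate 2. Stroma and epithelium of the uterus also express Gja1, so it is not a muscle marker.

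Jph2, a junctophilin that links the plasma membrane to the sarcoplasmic reticulum, had 7.27 and 6.89 with ormeloxifene, against 6.89 and 6.73 with vehicle. The lower ormeloxifene array and the higher vehicle array were equal to the second decimal, and the difference of 0.27 ± 0.23 was 0.08 without ormeloxifene replicate 1. Cacna1c, the pore subunit of the L-type calcium channel, had 7.69 and 7.07 with ormeloxifene and 7.40 and 7.11 with vehicle. Its groups overlapped, and the difference of 0.13 ± 0.27 was -0.18 without ormeloxifene replicate 1. The auxiliary channel subunit Cacna2d1 was higher in both ormeloxifene arrays (0.20 ± 0.21), whereas the T-type channel Cacna1h was at 0.06 ± 0.21. Pln, phospholamban, the inhibitor of the calcium pump of the sarcoplasmic reticulum, had 7.32 and 7.74 with ormeloxifene, against 7.46 and 7.32 with vehicle. It was lower within number 1 and higher within number 2 (-0.14 and 0.42), for a difference of 0.14 ± 0.23. Of the store release channels, Itpr1, the inositol trisphosphate receptor, was at 0.07 ± 0.21. Ryr2, a ryanodine receptor with a dim probe set, was at 0.11 ± 0.22.

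Genes that set light chain phosphorylation lay on both sides of 0, and no member passed the test. Irag1 encodes the inositol trisphosphate receptor-associated substrate of cGMP-dependent protein kinase, and Prkg1 that kinase, which mediates relaxation by nitric oxide. Irag1 had signals of 7.79 and 7.66 with ormeloxifene, against 7.26 and 7.34 with vehicle. Its groups did not overlap, the gap between them exceeded the gap within either group, and its difference of 0.43 ± 0.21 had the smallest unadjusted p of the 48 genes (limma adjusted p = 1.00). Prkg1 had 6.83 and 6.50 with ormeloxifene, against 6.53 and 6.17 with vehicle. These groups overlapped, with ormeloxifene higher within each number by 0.29 and 0.33 and a difference of 0.31 ± 0.24, or 0.13 without vehicle replicate 2.

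Mylk, the light chain kinase, had 8.92 and 8.60 with ormeloxifene, against 8.70 and 8.16 with vehicle. The difference of 0.33 ± 0.26 was 0.06 without vehicle replicate 2, the lowest array. The protein kinases that inhibit the myosin phosphatase were on the negative side, Rock1 at -0.13 ± 0.23 and Rock2 at -0.22 ± 0.33. Rock2 differed more between replicates than between groups, with 7.49 and 8.13 with ormeloxifene and 7.63 and 8.43 with vehicle. Ppp1r14a, the phosphatase inhibitor CPI-17, was at -0.12 ± 0.22. The targeting subunits of the phosphatase were at 0.09 ± 0.21 for Ppp1r12a and 0.22 ± 0.24 for Ppp1r12b. The median of the 8 genes was 0.15, with 5 higher and 3 lower.

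Srf and its coactivators Myocd and Mrtfa, the 3 genes measured of the transcription role, had a median difference of 0.01. Myocd, myocardin, had signals of 8.28 and 7.82 with ormeloxifene, against 8.04 and 7.68 with vehicle. The groups overlapped, and the difference of 0.19 ± 0.25 was -0.04 without ormeloxifene replicate 1. Srf had 8.33 and 8.11 with ormeloxifene, against 8.33 and 8.15 with vehicle. The Srf arrays of a number were nearly equal (0.01 within number 1 and -0.05 within number 2), with a 95% interval of -0.52 to 0.48. Mrtfa, the actin-regulated coactivator of Srf, was at 0.01 ± 0.23.

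Within the replicate numbers the 48 genes kept a similar centre. The median was 0.15 within number 1, with 37 genes higher, and 0.12 within number 2, with 35 higher. Over all genes 56.2% were higher within number 1 and 47.3% within number 2, with medians of 0.04 and -0.02. Higher in both numbers were 29 of the 48 genes, lower in both were 5, and the other 14 had opposite signs in the numbers. Of all 18166 genes, 5076 were higher in both and 4430 lower in both. With the number as a block in the limma fit, 0 of the 48 passed the adjusted threshold, against 0.0275% of all genes. At an unadjusted p under 0.05 that fit had 2 of the 48 genes, Synpo2 and Irag1, both higher (adjusted p = 0.701 each). Over all genes the shares were 3.74% higher and 3.02% lower.

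**Figure D3:**
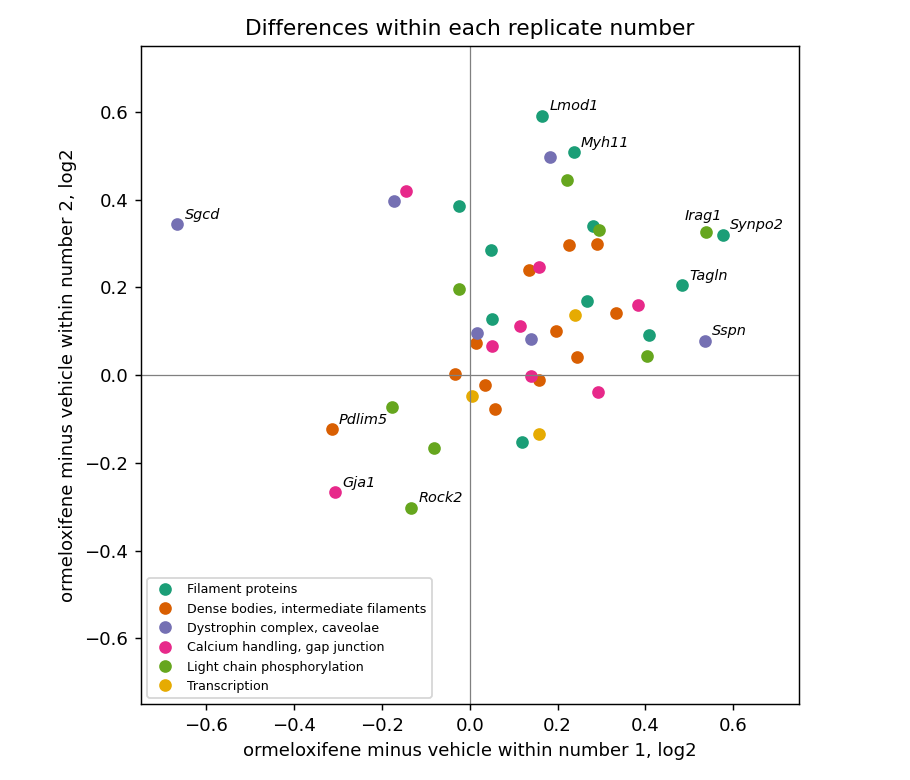
Ormeloxifene minus vehicle within number 1 (horizontal) against within number 2 (vertical), log2, for the 48 genes coloured by role. Most points lie at the upper right, above 0 in both (29 genes, against 5076 of all 18166). Pdlim5, Gja1 and Rock2 are among the 5 in the lower left (against 4430 of all 18166), and Sgcd lies apart at -0.67 and 0.34.

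Receptors and effectors that act on the same machinery were counted next: 30 of 39 measured genes were higher, with a median of 0.10 and 0 genes past the adjusted threshold. Ptgfr, the receptor of prostaglandin F2 alpha, had the smallest p, with 6.47 and 6.40 in ormeloxifene uteri, against 5.75 and 5.93 in vehicle uteri. Its groups did not overlap (0.60 ± 0.21, limma adjusted p = 1.00). Next came the calmodulin-dependent kinase Camk2g (0.41 ± 0.21) and Gucy1a1, a subunit of the soluble guanylate cyclase that feeds Prkg1 (0.41 ± 0.20). Of 32 further cytoskeletal and adhesion genes, 24 were higher, at a median of 0.07, led by Tgfb1i1 (Hic-5, a focal adhesion LIM protein, 0.44 ± 0.22), the beta sarcoglycan Sgcb (0.34 ± 0.21) and the integrin Itga7 (0.35 ± 0.21). Of 22 regulators of smooth muscle differentiation, 10 were higher and 12 lower, at a median of -0.02. The homeobox gene Prrx1 was at 0.55 ± 0.21 (limma adjusted p = 1.00), Tcf21 at 0.31 ± 0.21 and Hand2 at -0.31 ± 0.21. In the cytoskeletal and the regulator list, too, 0 genes passed the adjusted threshold.

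Pericyte and vascular muscle markers were higher in 9 of 10 genes, at a median of 0.14, with Rgs5 at 0.47 ± 0.22 and Mcam at 0.34 ± 0.23. Their mean signal was 7.80 and 7.58 in the ormeloxifene arrays, against 7.60 and 7.45 in the vehicle arrays. Of these markers, Abcc9 and Kcnj8 were also counted among the receptors and effectors, and Notch3 among the regulators. Vascular muscle shares the contractile genes with the myometrium, so the source of the contractile signal cannot be told apart. Epithelial markers were lower in 9 of 14 genes, at a median of -0.12, with mean signals of 7.16 and 7.22 with ormeloxifene, against 7.20 and 7.42 with vehicle. Their leading genes were Elf3 (-0.48 ± 0.21) and Prom1 (-0.39 ± 0.23). Stromal markers were split at 6 higher and 5 lower of 11, with a median of 0.07 and mean signals of 10.17 and 10.08 with ormeloxifene, against 10.06 and 10.12 with vehicle. The smallest p among them belonged to Hand2, lower as given above, and Hoxa10 (0.41 ± 0.31). Endothelial markers were higher in 7 of 9 (median 0.16, mean signals 7.55 and 7.48 with ormeloxifene, against 7.33 and 7.46 with vehicle), and macrophage markers in 9 of 10 (median 0.13, mean signals 7.93 and 8.03 with ormeloxifene, against 7.80 and 7.92 with vehicle). Cdh5 (0.25 ± 0.21) and Tek (0.27 ± 0.26) led the endothelial genes, and Lyz2 (0.27 ± 0.26) and Cd163 (0.23 ± 0.25) those of macrophages. Skeletal and cardiac markers were lower in 8 of 14 (median -0.12, mean signals 6.06 and 5.74 with ormeloxifene, against 6.11 and 5.88 with vehicle). Tnnc2, the troponin C of fast skeletal muscle, was at -0.73 ± 0.29 without overlap of the groups (-1.16 within number 1, -0.30 within number 2). The slow myosin Myh7, with a dim probe set (percentile 12.1) and overlapping groups, was at -0.47 ± 0.31. Log2 signals have no zero, so none of these markers can be called absent. The part of these cell types in the contractile result was not tested.

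**Figure D4:**
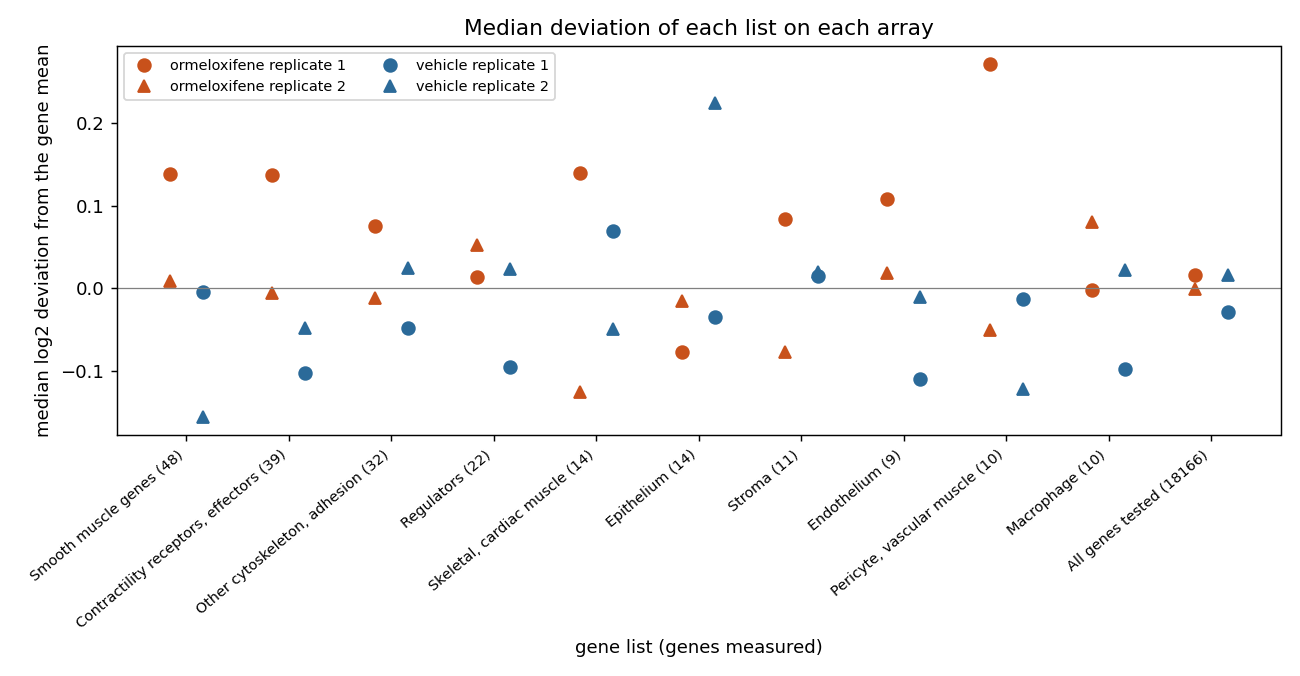
Median log2 deviation of each gene list from the gene means on each array, ormeloxifene left of vehicle, circles replicate 1 and triangles replicate 2. The 48 smooth muscle genes run from 0.14 in ormeloxifene replicate 1 to -0.16 in vehicle replicate 2, and the pericyte and vascular muscle markers have the same highest and lowest array.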

How the data were processed

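The authors deposited 1 table of log2 signals for 36685 probe sets on 4 arrays. Per the submitters' processing notes it was made with Affymetrix Expression Console; its version and summary method and the genome build were not given in the sources used here, and the log2 scale was read from the values. Because the columns differ in distribution, they were quantile-normalized over all probe sets. Of the probe sets, 18511 had exactly 1 gene symbol in the platform annotation, 575 had several and 17599 were unnamed. The brightest probe set was kept for each of 291 genes with several, leaving 18166. Differences come from limma 3.58.1 (lmFit, eBayes, R 4.3.3, 2-sided, no block), adjusted by Benjamini-Hochberg over all genes. The fit has 2 residual degrees of freedom, 7.55 after moderation. It was run on simulated independent arrays with changes larger than any smooth muscle gene showed. That run says nothing about differences as small as those here, or about arrays that deviate together. An exact permutation test of 1 gene cannot go below p = 0.333 here. P-values set each difference against the spread between the labelled replicates, moderated over all genes, and the number of arrays limits precision. Genes were given per array if anchors of the apparatus, the 2 of smallest p in a role, or the 2 most negative; in other lists, the 3 (markers, 2) of smallest p. Members and lists were chosen with earlier results of these data known. Alternatives covered scaling, probe set choice, dim genes, a variance trend, a replicate block and each array left out.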

Additional observations from a re-analysis of the deposited data

How the results depend on the processing

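Precision is limited by the number of arrays. Across the alternatives, 0 members passed the adjusted threshold (lowest adjusted p 0.701). The median difference ran from 0.07 to 0.20 with an array left out, against -0.0030 to 0.036 over all genes. The count higher ran from 31 to 38 of the 48, against 49.5% to 55% of all genes. It was 37 on the values as deposited (52.5% of all genes) and 34 with arrays centred on their medians (48.5%). Same-numbered arrays deviated together (correlation across genes 0.475), but 2 pairs do not show that the number pairs the rats. With the number as a replicate block, 2 of the 48 members had an unadjusted p under 0.05 (Synpo2 and Irag1), against 6.76% of all genes. The same 2 did when the block was fitted to deposited values (6.40% of all genes) or a variance trend was added without it (2.45%). In none of these fits did a member pass the adjusted threshold. Over all genes the calls at that threshold did change. They were 5 with the block, 84 with the block on deposited values and 3 with the trend, against 0 in the main fit. With an array left out, 0 to 1 members had an unadjusted p under 0.05 (Lmod1 without vehicle replicate 1, against 3.89% of all genes). Members with groups that did not overlap ran from 17 to 33 of the 48 higher and from 3 to 8 lower with an array left out. Over all genes the shares were 29.4% to 38.2% higher and 26.7% to 33.9% lower. The 33 of 48 members, without ormeloxifene replicate 2, stood beside 33.4% of all genes. The 17 of 48, without vehicle replicate 2, stood beside 38.2%. On the values as deposited, with or without the block, 19 of 48 were higher and 0 lower, against 9.57% and 7.65% of all genes. The 46 genes of exact symbol, an alternative chosen after seeing the data, gave 36 higher and a median of 0.14.

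Direction held in every alternative for 23 genes and turned in at least 1 for 25. Flnc was -0.0018 on the values as deposited, with and without the replicate block. With arrays centred on their medians Flnc was -0.022, Actn1 -0.00069, Cav1 -0.0067 and Mrtfa -0.019. With an array left out the ranges that crossed 0 were Tpm1 -0.045 to 0.54, Tpm2 -0.0097 to 0.37, Tpm4 -0.11 to 0.079, Vcl -0.15 to 0.13, Flnc -0.20 to 0.21, Actn1 -0.33 to 0.47, Pdlim3 -0.15 to 0.12, Ldb3 -0.089 to 0.18, Sgcd -0.54 to 0.21, Sspn -0.013 to 0.63, Cav1 -0.042 to 0.15, Cav3 -0.087 to 0.31, Cacna1c -0.18 to 0.44, Cacna1h -0.025 to 0.14, Ryr2 -0.0082 to 0.23, Itpr1 -0.039 to 0.18, Pln -0.076 to 0.35, Rock1 -0.30 to 0.052, Rock2 -0.62 to 0.18, Ppp1r12a -0.020 to 0.19, Ppp1r12b -0.023 to 0.47, Ppp1r14a -0.27 to 0.021, Myocd -0.043 to 0.42, Srf -0.13 to 0.092 and Mrtfa -0.20 to 0.22. The cause of these turns was not tested.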
